A study of Drosophila melanogaster with 12 samples.

Results

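Salivary glands of Drosophila melanogaster prepupae with 2 mutant alleles of E93 were compared between 14 and 12 h after pupariation, over all genes that passed a filter on low counts. The comparison used 6 of the 12 libraries of the series, 3 from 14 h mutants and 3 from 12 h mutants, and tested 7584 of the 17807 genes in the deposited count table. Mutant genotypes were E93Δ12/E93Δ13. The 6 remaining libraries came from control glands of the same ages, which carried 1 mutant allele themselves (+/E93Δ1), and they serve here only for comparison. Every animal was w1118 and carried fkh>GFP, a reporter that marks the salivary gland, with +/+ in the middle of the listed genotype, and was raised on a cornmeal molasses diet. RNA was purified with a NucleoSpin kit and made into standard Illumina libraries. The labels do not say whether replicates came from separate animals or collections, so p-values measure the spread between these samples, which may be technical.

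The steroid ecdysone times insect metamorphosis in pulses. A pulse in the late prepupa triggers the destruction of the larval salivary glands. In the gland the hormone acts through the EcR and Usp receptor pair, which switches on a small set of early regulators, among them br, Eip74EF, Eip75B and Eip93F (E93), and these act on later genes. The dying gland uses caspases, released from their inhibitors by the death activators rpr and hid, together with autophagy, the digestion of cytoplasm in lysosomes. E93 is a DNA-binding protein of this cascade, and larval glands are known to persist in its mutants.

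Mutant libraries held 7784303, 7655109 and 9497317 counts at 14 h and 7215918, 9277965 and 6977403 counts at 12 h. Levels are CPM, a gene's count relative to its library's total after TMM scaling. The limit that a count of 0 allows, 3 counts, was 0.281 to 0.484 CPM in mutant libraries (counting error only). Unless controls are named, log2 fold changes are 14 h over 12 h in mutants. The first principal component of the 6 mutant libraries (69.4% of variance) set the ages apart. Pairs of replicates correlated across genes at 0.974 to 0.977 at 14 h and 0.947 to 0.969 at 12 h. The gland factors fkh (6.32, 7.8 and 6.37 CPM in 14 h mutants, against 16.7, 6.01 and 5.48 CPM in 12 h mutants) and sage (72.5, 49.8 and 74.6 CPM in 14 h mutants, against 31.2, 49.5 and 22.3 CPM in 12 h mutants) were counted in every mutant library. The 14 h replicate 2 and the 12 h replicate 1 also held gut genes: mesh stood at 1.94, 56.7 and 2.81 CPM in 14 h mutants, against 135, 12.5 and 1.13 CPM in 12 h mutants, and Ssk at 0, 31.5 and 3.09 CPM in 14 h mutants, against 46.5, 5.15 and 0.323 CPM in 12 h mutants. Set against both other replicates of its group, that 14 h library exceeded them at least 4-fold in 16 genes and that 12 h library in 52, which included all of the 16. Of the 52 genes, 6 were called in the time comparison, against 45.1% of all genes. They were picked for a high value in 1 library, which widens the spread and makes a call less likely. The count of 6 therefore does not show how far these libraries affect the comparison. In that 14 h library and that 12 h library, the midgut marker Tsp2A stood at 12.1 and 21.2 CPM. Digestive enzyme genes held little there: Mal-A1 0 and 0.16 CPM, Amy-p 0 and 0, Jon65Aiii 0 and 0.16, alphaTry 0 and 2.24. The term gut genes therefore covers only part of the midgut markers. Among controls the 12 h replicate 1 stood apart, with 50 genes at least 4-fold above and 31 at least 4-fold below both other 12 h controls. Its ecdysone regulators summed to 4181 CPM, against 7268 and 8949 CPM in the other 12 h controls and 3394 to 3692 CPM in 14 h controls. Control time changes and their differences from mutants rest on it, so they are also given without it where the call changed or the value moved by over 1.5 times. In a bulk sample, fewer cells of a type and less RNA per cell cannot be told apart.

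Transcripts of E93 itself were counted first. Eip93F (FBgn0264490, chromosome 3R, 21949114 to 22014539, plus strand; positions follow a BDGP6 annotation that may not be the authors' release) stood at 1956, 1985 and 2022 CPM in 14 h mutants, against 4058, 4313 and 3870.0 CPM in 12 h mutants. The 14 h libraries lay below the 12 h libraries without overlap, a fall of 2.05-fold (log2 fold change -1.04, SE 0.20, edgeR adjusted p = 0.00141). Controls held 776, 865 and 894 CPM in 14 h controls, against 1175, 1917 and 2078 CPM in 12 h controls, and each mutant library exceeded each control library of its age. Counts over the whole gene do not show whether a transcript encodes working protein, so they do not check the genotype.

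A large part of the mutant transcriptome differed at 14 h from its state at 12 h. At an edgeR adjusted p under 0.05, 3417 of 7584 genes differed (45.1%), 1715 of them higher at 14 h (22.6%) and 1702 lower (22.4%). At least 2-fold changes made up 1179 of the rises and 1171 of the falls, and at least 8-fold changes 111 and 197. At 16-fold or more, 44 rises and 50 falls were left. The balance depends on scaling. The TMM factors were 1.13 to 1.26 at 14 h and 0.753 to 0.89 at 12 h, and with library size alone 4147 genes were called, 3109 higher and 1038 lower (75.0% higher). The median of all genes was 0.65 under that scaling and 0.14 under TMM. Gene groups are therefore also given relative to the median of all genes.

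Among named protein-coding genes with a mean of at least 10 CPM at the higher age and no overlap between ages, the largest rise belonged to RluA-1 (FBgn0051719, chromosome 2L, 10463340 to 10474349, minus strand), a gene of the pseudouridine synthase family. It stood at 98.6, 108 and 125 CPM in 14 h mutants, against 1.12, 0.716 and 0.968 CPM in 12 h mutants, a 117-fold difference (log2 fold change 6.87, SE 0.23, edgeR adjusted p = 5.29e-09). D, also named Dichaete (FBgn0000411, chromosome 3L, 14175610 to 14178620, minus strand), which encodes a Sox-family transcription factor, stood at 821, 793 and 869.7 CPM in 14 h mutants, against 10.7, 14.7 and 9.19 CPM in 12 h mutants (log2 fold change 6.16, SE 0.39, edgeR adjusted p = 3.23e-06). For both genes every 14 h library was far above every 12 h library. Eh, which encodes eclosion hormone, a neuropeptide known for triggering ecdysis behaviour, stood at 24, 40.0 and 47.4 CPM in 14 h mutants, against 0.481, 0.286 and 0.806 CPM in 12 h mutants (log2 fold change 6.13, SE 0.55, edgeR adjusted p = 1.2e-05). The 12 h values of Eh rest on 3, 2 and 5 counts.

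Other genes among the 12 largest rises fell into a few known classes. Antibacterial peptide genes were 4 of the 12: Dro (drosocin), AttA and AttB (attacins) and the bomanin BomS3. Pgant8, whose product starts mucin-type O-glycosylation, stood at 15.6, 112 and 69.3 CPM in 14 h mutants, against 0.321, 1.57 and 2.58 CPM in 12 h mutants (log2 fold change 5.44), and its 14 h libraries were widely spread. The gene caly, which encodes a deubiquitinase of the Polycomb group, stood at 116, 149 and 125 CPM in 14 h mutants, against 4.97, 3.87 and 3.39 CPM in 12 h mutants (31.9-fold). Lsm11, a part of the small nuclear particle that processes histone transcripts, rose 23.2-fold, and Ccdc85 rose 35-fold. The neuronal RNA-binding protein gene elav completed the 12 at 15.6, 18.4 and 18.4 CPM in 14 h mutants, against 1.28, 0.143 and 0.968 CPM in 12 h mutants (log2 fold change 4.46, SE 0.83, edgeR adjusted p = 0.001). Over 20% of the exon length of elav is shared with another gene on the same strand, so its counts may include reads of that neighbour.

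**Figure D1:**
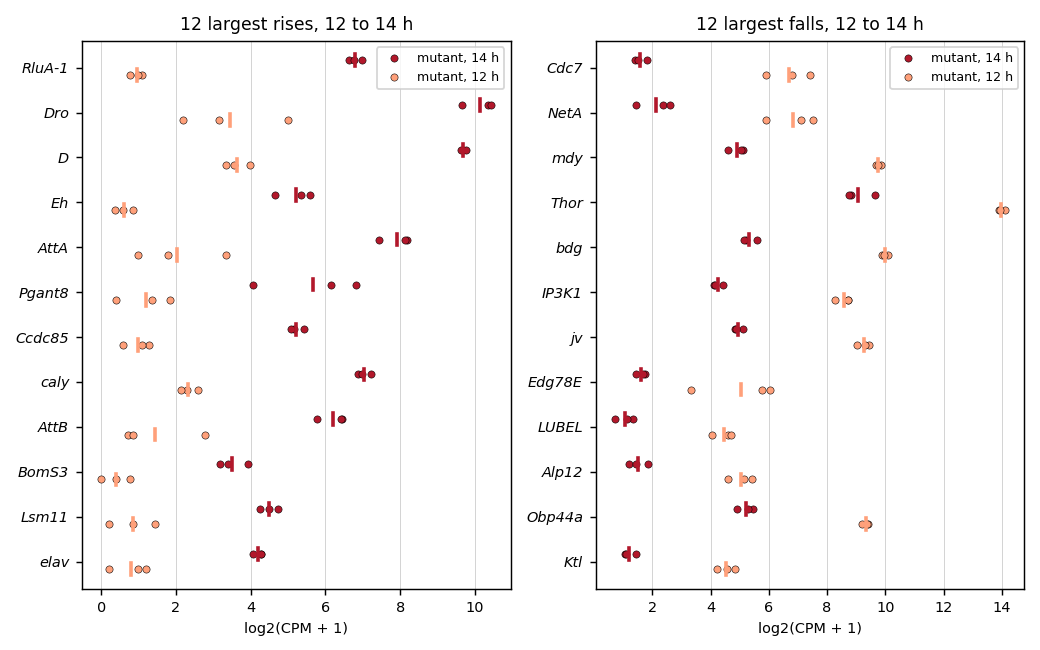
Level of the 12 largest rises (left) and 12 largest falls (right) as log2(CPM + 1) in each of the 3 libraries of 14 h mutants (dark red) and 12 h mutants (light orange); vertical bars are group means. The 24 genes were picked among genes whose 14 h and 12 h libraries do not overlap, so their separation is no result. They run from RluA-1 (log2 fold change 6.87) to Cdc7 (-5.79).

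By the same criteria the largest fall was that of Cdc7, which encodes a kinase that fires DNA replication origins. It stood at 1.63, 1.87 and 2.53 CPM in 14 h mutants, against 168, 111 and 58.9 CPM in 12 h mutants (log2 fold change -5.79, SE 0.64, edgeR adjusted p = 3.01e-05). NetA, a netrin guidance cue, stood at 4.18, 5.17 and 1.69 CPM in 14 h mutants, against 138, 182 and 58.7 CPM in 12 h mutants (log2 fold change -5.11). Both genes had a wide spread at 12 h. No 14 h library reached the lowest 12 h library, as the criteria required.

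Other large falls started from high 12 h levels. Thor (FBgn0261560, chromosome 2L, 3478434 to 3479612, plus strand), the translation repressor 4E-BP that TOR kinase inactivates, stood at 450.1, 426 and 801 CPM in 14 h mutants, against 15242, 17635 and 15529.8 CPM in 12 h mutants (log2 fold change -4.85, SE 0.69, edgeR adjusted p = 0.000162). The triglyceride synthesis gene mdy (midway, a diacylglycerol acyltransferase) stood at 33.8, 23 and 32.4 CPM in 14 h mutants, against 922, 813 and 859 CPM in 12 h mutants (log2 fold change -4.86, SE 0.42, edgeR adjusted p = 9.35e-06). Neither gene had overlapping groups, as the criteria for the largest falls required. The neurotransmitter-transporter family gene bdg had 47.8, 36.1 and 34.4 CPM in 14 h mutants, against 1081, 953 and 995 CPM in 12 h mutants, and jv (javelin), known for its part in bristle actin bundles, had 33.4, 27.5 and 28.4 CPM in 14 h mutants, against 695, 626 and 525 CPM in 12 h mutants. The odorant-binding protein gene Obp44a had 43, 38.5 and 28.9 CPM in 14 h mutants, against 685, 654 and 582 CPM in 12 h mutants (log2 fold change -4.12). The inositol trisphosphate kinase gene IP3K1 fell 21.3-fold, the cuticle protein gene Edg78E 20.3-fold, the linear ubiquitin ligase gene LUBEL 18.8-fold, the alkaline phosphatase gene Alp12 17.5-fold and Ktl 17-fold. IP3K1 shares over 20% of its exon length with a gene on the opposite strand, and the strand setting of the counting is not given in the sources used here.

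Among the called genes with the highest counts, folds were smaller. Ect3, related to lysosomal beta-galactosidases, stood at 36819, 37559 and 30805 CPM in 14 h mutants, against 67986, 86098 and 56633 CPM in 12 h mutants (log2 fold change -1.002, SE 0.22, edgeR adjusted p = 0.00288). Obp99b, another odorant-binding protein gene, stood at 9664, 8290.0 and 9231 CPM in 14 h mutants, against 28241, 42474 and 26307 CPM in 12 h mutants (log2 fold change -1.84, SE 0.23, edgeR adjusted p = 6.7e-05). The groups of both genes were separate. The myosin light chain kinase family gene Strn-Mlck fell 2.15-fold. For Sirup, a mitochondrial assembly factor gene, the libraries overlapped (5023, 5878 and 9947 CPM in 14 h mutants, against 9908, 15056 and 11297 CPM in 12 h mutants), and the call (edgeR adjusted p = 0.0337) was lost without the 14 h mutant replicate 1 or 2 (log2 fold change -0.61 and -0.69) or the 12 h mutant replicate 2 (-0.64), against -0.80 with all libraries. The cathepsin L gene CtsL1 stood at 16996, 16969.6 and 16136 CPM in 14 h mutants, against 21708, 29470.1 and 20285 CPM in 12 h mutants (log2 fold change -0.51, SE 0.19, edgeR adjusted p = 0.0428). With library size alone its log2 fold change was 0.02, and its call was lost in 9 of 12 fits that left out 1 library.

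Of the genes with the highest counts that rose, PGRP-SB2, a peptidoglycan-recognition amidase, stood at 11703, 15548 and 17903 CPM in 14 h mutants, against 3898, 5059 and 3362 CPM in 12 h mutants (log2 fold change 1.87, SE 0.31, edgeR adjusted p = 0.000499). The microtubule destabiliser gene stai (stathmin) stood at 4923, 5127 and 6220.4 CPM in 14 h mutants, against 1496, 1404 and 1268 CPM in 12 h mutants (log2 fold change 1.96, SE 0.34, edgeR adjusted p = 0.000561), and the small heat shock protein gene Hsp67Bc at 5135, 5228 and 6937 CPM in 14 h mutants, against 1828, 2719 and 2245 CPM in 12 h mutants (log2 fold change 1.35, SE 0.20, edgeR adjusted p = 0.000234). All 3 had non-overlapping groups. The cecropin genes CecC and CecB rose 2.06- and 1.74-fold and are described with the immune peptides.

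Ecdysone regulators fell as a group. Of the 20 genes listed, 16 passed the filter, and 12 of these were lower at 14 h (a call made for 22.4% of all genes), 3 higher (22.6% of all genes) and 1 not called, with a median log2 fold change of -1.43 (-1.57 relative to all genes; -2.23 without the 12 h mutant replicate 3). The early puff genes fell strongly. Eip74EF (FBgn0000567, chromosome 3L, 17558672 to 17619325, minus strand), an ETS-domain factor, stood at 286, 281 and 298 CPM in 14 h mutants, against 3247, 2724 and 2539.8 CPM in 12 h mutants (log2 fold change -3.30, SE 0.43, edgeR adjusted p = 8.3e-05). Eip75B (FBgn0000568, chromosome 3L, 17950953 to 18064696, minus strand), a haem-binding nuclear receptor, stood at 178, 172 and 164 CPM in 14 h mutants, against 1687, 1666 and 1273 CPM in 12 h mutants (log2 fold change -3.17, SE 0.39, edgeR adjusted p = 6.05e-05). The zinc-finger gene br (broad; FBgn0283451, chromosome X, 1575132 to 1664869, plus strand) stood at 458, 445 and 465 CPM in 14 h mutants, against 3565, 2983 and 2858 CPM in 12 h mutants (log2 fold change -2.78, SE 0.37, edgeR adjusted p = 0.000104). In each case the 14 h libraries lay close to one another and far below every 12 h library.

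The other nuclear receptors of the cascade followed in part. Hr4 fell 8.85-fold and Eip78C 8.01-fold. Eip78C stood at 61.2, 49.1 and 48 CPM in 14 h mutants, against 433, 439 and 396 CPM in 12 h mutants, without overlap. Hr38 and Hr39 fell less (log2 fold changes -1.11 and -0.49), and with library size alone neither was called (-0.59 and 0.03). The Hr39 call was also lost without the 14 h mutant replicate 2 (-0.47) or 3 (-0.43) or the 12 h mutant replicate 1 (-0.46). The competence factor gene ftz-f1 stood at 6.32, 10.7 and 8.9 CPM in 14 h mutants, against 23.7, 53.3 and 9.999 CPM in 12 h mutants, with overlapping groups (edgeR adjusted p = 0.00767), and shares exon sequence with a gene on its own strand.

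Genes that handle the hormone or respond to it in other ways also fell. E23, an ABC transporter known to oppose ecdysone responses, stood at 170.1, 141 and 124 CPM in 14 h mutants, against 722, 695 and 571 CPM in 12 h mutants (log2 fold change -2.19, SE 0.22, edgeR adjusted p = 1.9e-05). Oatp74D, the ecdysone importer, stood at 71.2, 74.4 and 60.9 CPM in 14 h mutants, against 156, 127 and 104 CPM in 12 h mutants (log2 fold change -0.91, edgeR adjusted p = 0.00391), which was not called with library size alone (-0.39). MsrA (Eip71CD), a methionine sulfoxide reductase gene, fell 4.79-fold.

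The receptor genes went the other way. EcR stood at 156, 183 and 148 CPM in 14 h mutants, against 82.7, 88.9 and 61 CPM in 12 h mutants (log2 fold change 1.07, SE 0.26, edgeR adjusted p = 0.00571). Its partner usp stood at 87.4, 97.3 and 86 CPM in 14 h mutants, against 70.0, 58.6 and 60.2 CPM in 12 h mutants (log2 fold change 0.52, SE 0.15, edgeR adjusted p = 0.0142). The usp call was lost without the 14 h mutant replicate 2 (log2 fold change 0.46) or the 12 h mutant replicate 2 or 3 (0.43 each). Eip63E, which encodes a cyclin-dependent kinase, showed the largest rise of the list at 772, 983 and 999.9 CPM in 14 h mutants, against 149.5, 189 and 126 CPM in 12 h mutants (log2 fold change 2.57, SE 0.33, edgeR adjusted p = 7.25e-05). Cth (Eip55E), the cystathionine gamma-lyase gene, was not called (3.06, 2.86 and 2.15 CPM in 14 h mutants, against 2.72, 4.01 and 2.9 CPM in 12 h mutants).

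**Figure D2:**
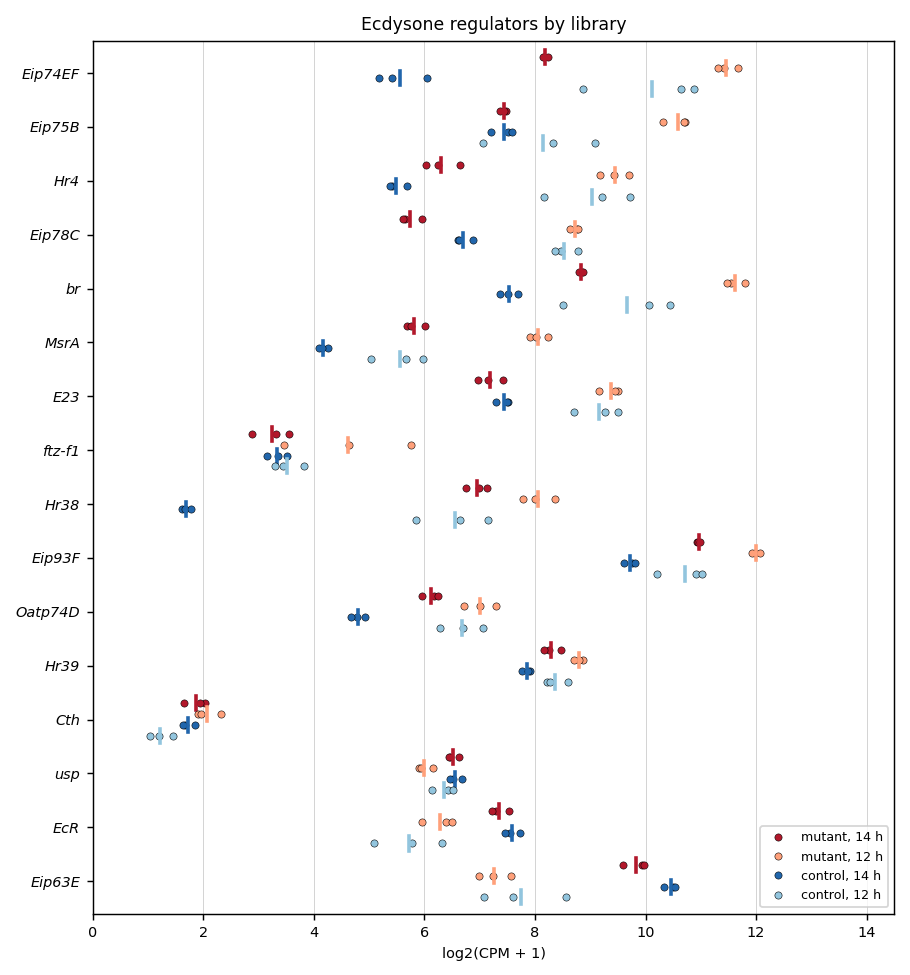
Level of the 16 measured ecdysone regulators as log2(CPM + 1) in each library of 14 h and 12 h mutants (dark red and light orange) and 14 h and 12 h controls (dark and light blue), ordered by log2 fold change in mutants; vertical bars are group means. The early genes Eip74EF, Eip75B and br were each lower in all 14 h mutant libraries than in any 12 h mutant library, whereas EcR, usp and Eip63E were higher.

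A list of membrane and secreted genes known from ecdysone-treated tissues also held the enzyme genes Ddc and Ldh. It gave 1 rise (12.5%, against 22.6% of all genes) and 4 falls (50%, against 22.4%) among 8 tested. Ddc and Ldh were among the falls, and Ldh is counted again with the glycolytic genes below. The list median was -0.88 (-1.02 relative to all genes). Ddc, the dopa decarboxylase of cuticle tanning and dopamine synthesis, stood at 44.2, 19.5 and 15.7 CPM in 14 h mutants, against 265, 446 and 247 CPM in 12 h mutants (log2 fold change -3.59, SE 0.46, edgeR adjusted p = 7.58e-05). ImpE2 fell 5.1-fold from low counts. The rise was that of Fbp1, a fat body receptor gene, which is also a marker of that tissue.

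Glue genes, which encode the mucins that fix the prepupa to its substrate and are mostly silent by this age, fell further. Of 10 tested, 7 were lower (70%, against 22.4% of all genes) and 1 higher (10%, against 22.6%). Their median was -1.48 (-1.62 relative to all genes). Sgs7 stood at 4.9, 6.7 and 11.4 CPM in 14 h mutants, against 40.4, 28.5 and 66.1 CPM in 12 h mutants (log2 fold change -2.54). Sgs8 stood at 4.39, 6.27 and 8.43 CPM in 14 h mutants, against 31.7, 21.5 and 47.3 CPM in 12 h mutants (-2.39). Pig1 stood at 1.12, 0.989 and 1.97 CPM in 14 h mutants, against 8.97, 14 and 15.2 CPM in 12 h mutants (-3.20). In all 3 genes the 14 h libraries lay below every 12 h library. Sgs5bis stood at 583, 679 and 1196 CPM in 14 h mutants, against 1427, 1126 and 4615 CPM in 12 h mutants. Its groups overlapped, and its call (edgeR adjusted p = 0.0476) was lost in 7 of 12 fits that left out 1 library. The gene that rose, Eig71Ee, encodes a late glue protein of the 71E region and stood at 16.8, 30.6 and 24.2 CPM in 14 h mutants, against 12, 15 and 9.999 CPM in 12 h mutants (log2 fold change 0.95). Without both libraries with gut genes it was not called (0.70, edgeR adjusted p = 0.0938), which left 0 glue genes higher and 6 lower.

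The late genes of the 71E region, small secreted peptide genes that ecdysone switches on in the prepupal gland, did not move together. Of 10 tested, 3 rose (30%, against 22.6% of all genes) and 3 fell (30%, against 22.4%). Eig71Ea stood at 1379, 3042 and 4975 CPM in 14 h mutants, against 11754, 12254 and 16627 CPM in 12 h mutants (log2 fold change -2.11, SE 0.57, edgeR adjusted p = 0.00956). Eig71Eb stood at 967, 2076 and 3327 CPM in 14 h mutants, against 6397, 6633 and 9667 CPM in 12 h mutants. Eig71Ek stood at 395, 723 and 1542 CPM in 14 h mutants, against 2858, 3590.0 and 5280.1 CPM in 12 h mutants. These 3 fell, with no overlap between groups. Eig71Ef stood at 917, 3213 and 4258 CPM in 14 h mutants, against 539, 1095 and 307 CPM in 12 h mutants (log2 fold change 2.11, SE 0.59, edgeR adjusted p = 0.0114), and Eig71Eg and Eig71Eh rose 4.24- and 4.51-fold. In these 3 genes the groups overlapped. The 14 h mutant replicate 1 lay below the other 14 h mutants in all 10 genes.

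All 3 rises depended on single libraries. Leaving out the 14 h mutant replicate 3 or the 12 h mutant replicate 3 ended the calls of Eig71Ef (log2 fold changes 1.67 and 1.71), Eig71Eg (1.60 and 1.71) and Eig71Eh (1.73 and 1.76), at an edgeR adjusted p of up to 0.106. The falls of Eig71Ea and Eig71Ek stayed called in all 12 fits that left out 1 library, and that of Eig71Eb was lost in 2. Without the 14 h replicate 2 and the 12 h replicate 1, the libraries with gut genes, only Eig71Ek was still called by edgeR. The fold changes there were 1.88, 1.93 and 1.81 on the log2 scale for Eig71Ef, Eig71Eg and Eig71Eh, and -2.19, -1.93 and -2.20 for Eig71Ea, Eig71Eb and Eig71Ek. In controls 9 of 10 members fell, against 22.4% of all genes there, and 0 rose, with a median of -2.47 (-2.92 without the 12 h control replicate 1, where all 10 fell). In mutants the median was 0.34, which was -0.09 without the 14 h replicate 3, 0.77 without the 14 h replicate 1, 0.21 without the 14 h replicate 2, 0.22 without the 12 h replicate 1 and 0.09 without both libraries with gut genes. The time changes of mutants and controls differed by the interaction test for Eig71Ec, Eig71Ed, Eig71Ef and Eig71Eg, a call made for 2.72% of all genes. These 4 calls were lost in 6, 8, 9 and 9 of the 12 fits that left out 1 library (edgeR adjusted p of up to 0.122). Without the 12 h control replicate 1 these 4 stayed called. The difference was then also called for Eig71Eh (4.46, edgeR adjusted p = 0.0119) and Eig71Ei (3.35, edgeR adjusted p = 0.0119).

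**Figure D3:**
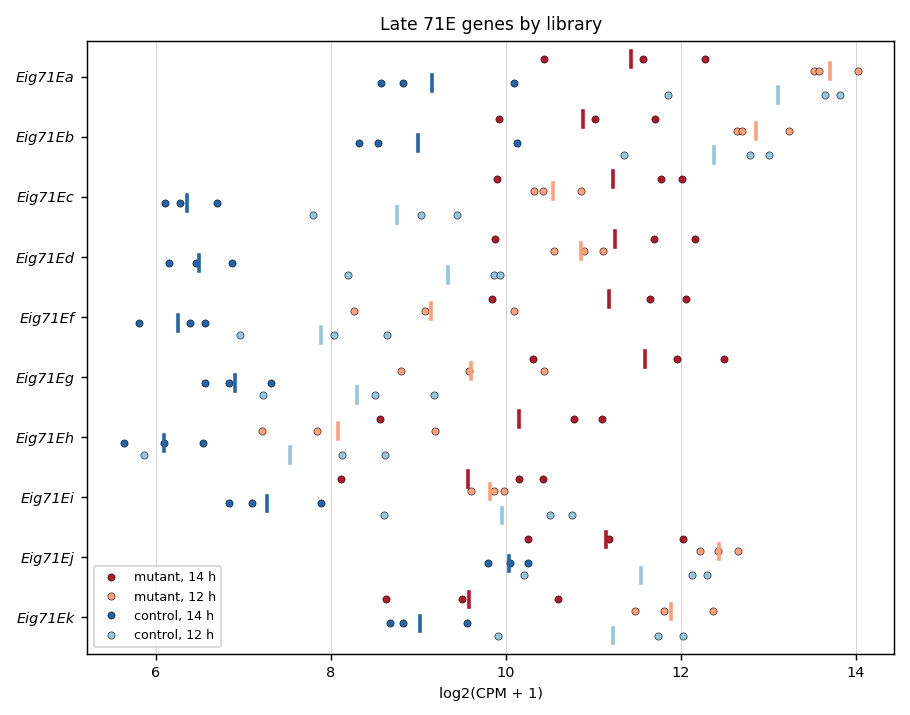
Level of the 10 late 71E genes as log2(CPM + 1) in each library of 14 h and 12 h mutants (dark red and light orange) and 14 h and 12 h controls (dark and light blue); vertical bars are group means. In mutants Eig71Ea, Eig71Eb and Eig71Ek were lower at 14 h, while Eig71Ef and Eig71Eg were higher in mean with overlapping libraries.

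Cell death genes changed in both directions. Of 14 tested, 3 rose (21.4%, against 22.6% of all genes) and 7 fell (50%, against 22.4%), with a median of -1.05 (-1.19 relative to all genes). The median was -1.77 without the 12 h mutant replicate 3, -0.55 without the 12 h mutant replicate 1 and -0.58 without both libraries with gut genes, where 3 were again higher and 7 lower. The death activator hid (FBgn0003997, chromosome 3L, 18167745 to 18185641, minus strand), whose product removes the caspase inhibitor Diap1, stood at 239, 223 and 245 CPM in 14 h mutants, against 27.7, 34.9 and 24.7 CPM in 12 h mutants (log2 fold change 3.02, SE 0.75, edgeR adjusted p = 0.00585). The other activator, rpr, stood at 253, 157 and 284 CPM in 14 h mutants, against 125, 198 and 191 CPM in 12 h mutants and was not called (edgeR adjusted p = 0.23), with overlapping groups. With library size alone rpr was called (log2 fold change 0.95).

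The effector caspase gene Dcp-1 stood at 79.8, 77.5 and 82.5 CPM in 14 h mutants, against 7.21, 9.74 and 7.1 CPM in 12 h mutants (log2 fold change 3.31, SE 0.60, edgeR adjusted p = 0.000798), and Debcl, the fly Bcl-2 family member known as pro-death, rose 2.75-fold. The caspase inhibitor genes fell: Diap1 stood at 432, 391 and 391 CPM in 14 h mutants, against 1742, 1782 and 1480.0 CPM in 12 h mutants (log2 fold change -2.04, SE 0.24, edgeR adjusted p = 4.28e-05). Diap2 stood at 30.2, 26.4 and 26 CPM in 14 h mutants, against 301, 264 and 291 CPM in 12 h mutants (log2 fold change -3.37, SE 0.42, edgeR adjusted p = 6e-05). Both had 14 h libraries far below every 12 h library. The initiator caspase gene Dronc fell as well, with 1497, 1489.7 and 1507 CPM in 14 h mutants, against 2579, 2755 and 2401 CPM in 12 h mutants (log2 fold change -0.78). Its adaptor gene Dark stood at 181, 138 and 154 CPM in 14 h mutants, against 888, 963 and 843 CPM in 12 h mutants (log2 fold change -2.51). Dronc was not called with library size alone (-0.27), and Dark shares exon sequence with a gene on the opposite strand. Further falls were those of the caspase genes Strica (6.49-fold) and Dredd (2.49-fold) and of the Bcl-2 family gene Buffy (4.82-fold). The effector caspase gene Drice stood at 97.3, 113 and 101 CPM in 14 h mutants, against 137, 147 and 108 CPM in 12 h mutants and was not called by edgeR (log2 fold change -0.33, adjusted p = 0.0996). DESeq2 called it (-0.44, adjusted p = 0.0284), and so did edgeR without the 12 h mutant replicate 3 (-0.52, adjusted p = 0.0259) or the 12 h control replicate 1 (-0.38, adjusted p = 0.046).

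Engulfment genes, which mark and clear dying cells, gave 3 rises (30%, against 22.6% of all genes) and 4 falls (40%, against 22.4%) among 10 tested. Their median was -0.51 (-0.65 relative to all genes), -0.30 without the 12 h mutant replicate 1 and 0.02 with library size alone. The receptor gene drpr (Draper; FBgn0027594, chromosome 3L, 1715595 to 1731107, minus strand) stood at 115, 194 and 122 CPM in 14 h mutants, against 195, 119 and 109 CPM in 12 h mutants and was not called (log2 fold change 0.03, edgeR adjusted p = 0.941). In controls it stood at 471, 454 and 417 CPM in 14 h controls, against 145, 88.1 and 116 CPM in 12 h controls (log2 fold change 1.95, edgeR adjusted p = 0.000157). The difference between the time changes, mutant minus control, was -1.92 (SE 0.38, edgeR adjusted p = 0.0175). That call was lost without the 14 h mutant replicate 1 or 3 or the 14 h control replicate 1 or 2, at an edgeR adjusted p of up to 0.0582. Its cytoplasmic partners changed in both directions. The adaptor gene ced-6 stood at 75, 48 and 54.6 CPM in 14 h mutants, against 684, 691 and 517 CPM in 12 h mutants, a 10.7-fold fall. The kinase gene Src42A stood at 182, 134 and 124 CPM in 14 h mutants, against 1844, 1512 and 1304 CPM in 12 h mutants, a 10.6-fold fall. The kinase gene Shark rose, with 57, 56.8 and 44 CPM in 14 h mutants, against 14.4, 18.9 and 16.6 CPM in 12 h mutants (log2 fold change 1.66). The small GTPase gene Rac1 rose 1.58-fold, and mbc, which activates Rac1, fell 3.21-fold.

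Autophagy genes mostly fell or were not called. Of 27 tested, 2 rose (7.41%, against 22.6% of all genes) and 13 fell (48.1%, against 22.4%). The median was -0.45 (-0.59 relative to all genes). With library size alone the median was 0.08, with 6 higher and 7 lower. The largest fall was that of bchs (blue cheese, a large adaptor for autophagy of aggregates), at 95.9, 101 and 94.9 CPM in 14 h mutants, against 1186, 889 and 835 CPM in 12 h mutants (log2 fold change -3.32, SE 0.37, edgeR adjusted p = 3.37e-05). Atg13, a subunit of the initiating Atg1 kinase complex, stood at 485, 352 and 375 CPM in 14 h mutants, against 1180.1, 1188 and 1123 CPM in 12 h mutants. Syx17, the SNARE that fuses autophagosomes with lysosomes, stood at 48.1, 39 and 46.3 CPM in 14 h mutants, against 174, 179 and 96.3 CPM in 12 h mutants. None of these 3 genes had overlapping ages. The conjugation enzyme gene Atg3 rose, at 48.5, 59.8 and 65.2 CPM in 14 h mutants, against 28, 35.1 and 17.9 CPM in 12 h mutants (log2 fold change 1.10, edgeR adjusted p = 0.00619). The other rise was that of Atg16 (edgeR adjusted p = 0.0468), whose call was lost in 11 of 12 fits that left out 1 library.

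Lysosomal genes gave 3 rises (16.7%, against 22.6% of all genes) and 9 falls (50%, against 22.4%) among 18 tested. Their median was -0.49 (-0.63 relative to all genes). With library size alone it was 0.03, with 5 higher and 3 lower. LManII, a lysosomal alpha-mannosidase gene, stood at 84.7, 89.9 and 83.2 CPM in 14 h mutants, against 14.1, 14.5 and 9.84 CPM in 12 h mutants (log2 fold change 2.74, SE 0.21, edgeR adjusted p = 6.45e-06). The groups were far apart, and in controls the gene was not called (13.9, 14 and 14.9 CPM in 14 h controls, against 9.22, 15.9 and 12.6 CPM in 12 h controls). Npc2a, a sterol carrier of the lysosome, rose 2.02-fold. The cathepsin B gene CtsB stood at 1060.0, 1021 and 948 CPM in 14 h mutants, against 2214, 2751 and 1923 CPM in 12 h mutants, and the Batten disease homologues Cln3 and Cln7 fell 14.9- and 2.79-fold. Subunits of the proton pump that acidifies lysosomes, the V-ATPase, gave 3 rises (18.8%) and 8 falls (50%) of 16, with a median of -0.53. The median was -0.24, -0.26 and -0.34 in fits that left out replicate 1 or 3 of the 14 h mutants or replicate 1 of the 12 h mutants. With library size alone it was -0.02, with 6 higher and 3 lower. Vha36-1 led the falls (15.4, 14.1 and 17.4 CPM in 14 h mutants, against 44.2, 29.4 and 44.2 CPM in 12 h mutants). VhaAC39-2 rose with a log2 fold change of 3.63.

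Immune peptide genes rose. Of 15 tested, 10 were higher (66.7%, against 22.6% of all genes) and 0 lower by edgeR. The median was 2.42 (2.28 relative to all genes). It was 1.47 without the 12 h mutant replicate 3, and 3.69 over the members with at least 5 CPM in at least 3 libraries. The 5 others had positive, uncalled values. Dro stood at 807, 1308 and 1382 CPM in 14 h mutants, against 3.53, 31.1 and 7.9 CPM in 12 h mutants (log2 fold change 6.35, SE 1.42, edgeR adjusted p = 0.00324). AttA stood at 172, 289 and 278 CPM in 14 h mutants, against 0.962, 9.02 and 2.42 CPM in 12 h mutants (log2 fold change 5.87, SE 1.30, edgeR adjusted p = 0.00306). AttB stood at 53.9, 85.2 and 84.8 CPM in 14 h mutants, against 0.641, 5.87 and 0.806 CPM in 12 h mutants. The 12 h mutant replicate 2 held the highest 12 h value of all 3. No 12 h library reached a 14 h library, as the criteria for the largest rises required. The bomanin genes were silent or nearly so at 12 h. BomS2 had 252 counts in all at 14 h and 0 at 12 h, which is at least 55.2-fold higher when 3 counts stand for the 12 h group. BomS3 stood at 14.3, 9.56 and 7.96 CPM in 14 h mutants, against 0, 0.716 and 0.323 CPM in 12 h mutants. BomS1 stood at 9.38, 4.51 and 5.06 CPM in 14 h mutants, against 0, 0.143 and 0.161 CPM in 12 h mutants.

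The cecropin genes were well counted at both ages: CecC stood at 19648, 19987 and 26546 CPM in 14 h mutants, against 8012, 14116 and 10023 CPM in 12 h mutants (log2 fold change 1.04, SE 0.29, edgeR adjusted p = 0.0111). CecB stood at 7864, 7601 and 11751 CPM in 14 h mutants, against 3978, 6775 and 4876 CPM in 12 h mutants (edgeR adjusted p = 0.0411). The CecC call was lost without the 12 h mutant replicate 1 (log2 fold change 0.86), and that of CecB in 8 of 12 fits that left out 1 library. Def, the defensin gene, stood at 138, 159 and 152 CPM in 14 h mutants, against 14.4, 56.3 and 13.1 CPM in 12 h mutants, and its call was lost in 8 such fits. Without the 14 h replicate 2 and the 12 h replicate 1, 7 members were higher. Fat body, the main source of such peptides, was followed by 9 markers, of which 8 passed the filter. Of these 8, 6 were higher (75%, against 22.6% of all genes) and 1 lower (12.5%, against 22.4%) at 14 h, and none was at 0 in a mutant library. Without both libraries with gut genes 4 were called higher and 0 lower by edgeR. Summed levels of all 9 were 434 to 688 CPM in 14 h mutants and 192 to 289 CPM in 12 h mutants. Cyp4g1, the marker not tested, was at 0 in every mutant library except the 12 h replicate 2 (0.286 CPM). Lsp2, a larval storage protein gene, stood at 174, 217 and 271 CPM in 14 h mutants, against 44.9, 77.6 and 51.4 CPM in 12 h mutants. Hemocyte markers were called in neither direction (0 of 5; 18.7 to 26.9 CPM in 14 h mutants and 8.88 to 22.9 CPM in 12 h mutants; 0 higher or lower by edgeR). The part of these cells in the immune peptide levels was not tested.

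Cytoplasmic ribosomal protein genes fell as a block. Of 84 tested, 79 were lower (94%, against 22.4% of all genes) and 0 higher by edgeR, with a median of -0.92 and a range of -1.53 to 0.07. Relative to all genes the median was -1.06 under TMM and -1.04 with library size alone, where 41 were called lower. RpS3A stood at 456, 473 and 592 CPM in 14 h mutants, against 1318, 1408 and 1650.3 CPM in 12 h mutants (log2 fold change -1.53, SE 0.23, edgeR adjusted p = 0.000255). RpL3 stood at 268, 275 and 218 CPM in 14 h mutants, against 559, 649 and 592 CPM in 12 h mutants. RpS3 stood at 237, 256 and 272 CPM in 14 h mutants, against 467, 547 and 537 CPM in 12 h mutants. The groups were separate in all 3, and the falls were modest in size. Of 35 mitochondrial ribosomal protein genes, 8 were higher (22.9%, against 22.6% of all genes) and 1 lower (2.86%, against 22.4%), with a median of 0.66 (0.52 relative to all genes). Among them mRpL30 stood at 12.1, 13 and 15.1 CPM in 14 h mutants, against 2.24, 3.15 and 3.71 CPM in 12 h mutants (log2 fold change 2.14, SE 0.30, edgeR adjusted p = 0.000154).

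Proteasome genes rose. Of 31 tested, 21 were higher (67.7%, against 22.6% of all genes) and 1 lower (3.23%, against 22.4%). The median was 0.79 (0.65 relative to all genes). The rises covered both the regulatory lid and base and the catalytic core. Rpn2 stood at 118, 155 and 138 CPM in 14 h mutants, against 44.7, 52.1 and 41.8 CPM in 12 h mutants (log2 fold change 1.57, SE 0.19, edgeR adjusted p = 5.47e-05). Rpt5 stood at 33.9, 46.5 and 45.9 CPM in 14 h mutants, against 15.9, 12 and 11.8 CPM in 12 h mutants. Rpn11, the deubiquitinase of the lid, stood at 37.1, 44.3 and 45.1 CPM in 14 h mutants, against 16.8, 16.2 and 14.7 CPM in 12 h mutants. No 12 h library reached a 14 h library in these genes. The core subunit gene Prosbeta3 was the exception, at 9.18, 12.1 and 15.1 CPM in 14 h mutants, against 17, 22.6 and 16.6 CPM in 12 h mutants (edgeR adjusted p = 0.0473), and its call was lost in 7 of 12 fits that left out 1 library.

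Glycolytic genes fell. Of 12 glycolytic genes, 10 were lower (83.3%, against 22.4% of all genes) and 1 higher (8.33%, against 22.6%). Their median was -1.33 (-1.47 relative to all genes). PyK (pyruvate kinase) stood at 16.5, 17.1 and 9.46 CPM in 14 h mutants, against 139.7, 117 and 108 CPM in 12 h mutants (log2 fold change -3.08, SE 0.44, edgeR adjusted p = 0.00017). Gapdh2 stood at 26.9, 19.3 and 18.1 CPM in 14 h mutants, against 155, 159 and 153 CPM in 12 h mutants. Pfk, which encodes the committed step, stood at 5.3, 7.91 and 5.71 CPM in 14 h mutants, against 46.3, 50.5 and 34.7 CPM in 12 h mutants. Each of these 3 was several-fold lower in every 14 h library. Ldh, the lactate dehydrogenase gene that is also known as the ecdysone-inducible ImpL3, stood at 12.9, 7.69 and 8.05 CPM in 14 h mutants, against 98.9, 59.7 and 99.7 CPM in 12 h mutants (log2 fold change -3.17, SE 0.36, edgeR adjusted p = 3.42e-05). Its ages did not overlap either. The rise was that of the hexokinase gene Hex-A, at 45.4, 46.2 and 34.1 CPM in 14 h mutants, against 22.9, 9.31 and 15.5 CPM in 12 h mutants (log2 fold change 1.40). Oxidative phosphorylation genes were mostly not called: 1 of 65 was higher (1.54%, against 22.6% of all genes) and 14 lower (21.5%, against 22.4%), with a median of -0.33. With library size alone 18 were higher and 3 lower. ATPsynbeta, the catalytic subunit gene of ATP synthase, stood at 36.9, 33.3 and 29.7 CPM in 14 h mutants, against 80.1, 74.3 and 81.9 CPM in 12 h mutants, and ND-51 of complex I rose 1.63-fold.

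Of 19 insulin and TOR pathway genes, 3 rose (15.8%, against 22.6% of all genes) and 6 fell (31.6%, against 22.4%). With library size alone 7 were higher and 4 lower. Thor, described above, had the largest fall. InR, the insulin receptor gene, stood at 38.6, 27.3 and 20.5 CPM in 14 h mutants, against 92.5, 71.3 and 59.3 CPM in 12 h mutants (log2 fold change -1.37), and the amino acid transporter gene slif fell 3.78-fold. Sdr, a secreted decoy of the insulin receptor, stood at 161, 198 and 189 CPM in 14 h mutants, against 45, 60.3 and 28.7 CPM in 12 h mutants (log2 fold change 2.03, SE 0.31, edgeR adjusted p = 0.00025), and raptor, the TOR complex subunit gene, rose 2.29-fold. REPTOR, a transcription factor restrained by TOR, stood at 36.2, 37.9 and 32.7 CPM in 14 h mutants, against 65.7, 60.7 and 75.2 CPM in 12 h mutants (log2 fold change -0.92); with library size alone it was not called (-0.41).

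Genes of the secretory pathway gave a mixed picture. Of 25 translocation and coat genes, 3 rose (12%, against 22.6% of all genes) and 4 fell (16%, against 22.4%). With library size alone 13 were higher and 1 lower. Sar1, the GTPase that builds COPII vesicles, stood at 74.8, 99.4 and 133 CPM in 14 h mutants, against 22.4, 18.3 and 19.7 CPM in 12 h mutants (log2 fold change 2.35, SE 0.27, edgeR adjusted p = 3.6e-05). Of 19 genes listed for endoplasmic reticulum folding and the unfolded protein response, 3 rose (15.8%) and 10 fell (52.6%). Their median was -0.74 (-0.88 relative to all genes), and -0.46 without the 12 h mutant replicate 3. The chaperone gene Hsc70-3 (BiP) stood at 125, 131 and 94.7 CPM in 14 h mutants, against 247, 202 and 279 CPM in 12 h mutants (log2 fold change -1.06), whereas the disulfide oxidase gene Ero1L stood at 176, 258 and 216 CPM in 14 h mutants, against 22.8, 23.2 and 15.5 CPM in 12 h mutants (log2 fold change 3.40, SE 0.70, edgeR adjusted p = 0.00197). Pdi, the isomerase that Ero1L reoxidises, rose 2.3-fold. Of 18 heat shock genes, 7 fell (38.9%) and 1 rose (5.56%). With library size alone 5 were lower and 5 higher. DnaJ-1 (Hsp40) stood at 19.6, 33.7 and 15.5 CPM in 14 h mutants, against 272, 217 and 245 CPM in 12 h mutants. This gene is also on the list for endoplasmic reticulum folding, so its fall is counted in both lists. The heat shock factor gene Hsf stood at 31.1, 32 and 32.9 CPM in 14 h mutants, against 159, 138 and 183 CPM in 12 h mutants. Of 12 gland identity genes, 1 was higher (CrebA) and 2 were lower (PH4alphaSG1 and sens). Those shares, 8.33% and 16.7%, lay below the shares of all genes. The calls of CrebA and sens were lost in 4 and 3 of 12 fits that left out 1 library.

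Among structural and cell-cycle lists, DNA replication and endocycle genes gave 5 rises (23.8%, against 22.6% of all genes) and 0 falls of 21 by edgeR, and 3 rises without both libraries with gut genes. Among the rises was Dp, the E2F partner gene, at 48.9, 46.2 and 37.4 CPM in 14 h mutants, against 12.5, 14.5 and 9.84 CPM in 12 h mutants (log2 fold change 1.84, SE 0.24, edgeR adjusted p = 9.78e-05). Chitin and cuticle genes gave 3 rises (7.89%) and 9 falls (23.7%, against 22.4% of all genes) of 38. Without both libraries with gut genes 13 fell, and the falls ran from 4 to 18 over all alternatives. The list median was -0.89, against -1.36 without the 12 h mutant replicate 1 and -0.55 without the 12 h mutant replicate 3. The chitin organiser gene knk (knickkopf) stood at 194, 263 and 236 CPM in 14 h mutants, against 13.8, 16 and 22.7 CPM in 12 h mutants (log2 fold change 3.72, SE 0.56, edgeR adjusted p = 0.000249). The cuticle protein gene Cpr51A stood at 177, 135 and 213 CPM in 14 h mutants, against 329, 493 and 544 CPM in 12 h mutants. The groups of both were separate. Cytochrome P450 genes gave 3 rises (10.7%) and 8 falls (28.6%) of 28, and 6 rises and 4 falls with library size alone. Among the falls was Cyp4e2, at 26.5, 25.6 and 29.4 CPM in 14 h mutants, against 277, 282 and 265 CPM in 12 h mutants (log2 fold change -3.34, SE 0.36, edgeR adjusted p = 2.66e-05). Septate junction and polarity genes gave 5 rises (22.7%) and 4 falls (18.2%) of 22, and 13 rises and 2 falls with library size alone. The polarity gene scrib (scribble) stood at 2209, 2452 and 1913 CPM in 14 h mutants, against 419, 456 and 283 CPM in 12 h mutants (log2 fold change 2.51, SE 0.49, edgeR adjusted p = 0.00132). Rab GTPases and their named regulators gave 4 rises (15.4%) and 9 falls (34.6%) of 26, and 9 rises and 2 falls with library size alone. Rab5 of early endosomes stood at 396, 385 and 420.2 CPM in 14 h mutants, against 1469, 1393 and 1275 CPM in 12 h mutants. Rab35 rose, with 168, 148 and 157 CPM in 14 h mutants, against 43.9, 67 and 41.4 CPM in 12 h mutants. Among 18 tRNA synthetase genes 3 rose (16.7%) and 1 fell (5.56%), where AspRS rose 4.54-fold. Among 15 nucleolar genes 1 rose (Myc, 6.67%) and 1 fell (Non1, 6.67%). The Myc call was lost without the 14 h mutant replicate 1 (log2 fold change 1.28) or the 12 h mutant replicate 1 (1.22) or 2 (1.14). AspRS, knk, Lsp2, Pdi and Myc share over 20% of their exon length with a gene on the opposite strand, and raptor and Myc with a gene on the same strand.

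**Figure D4:**
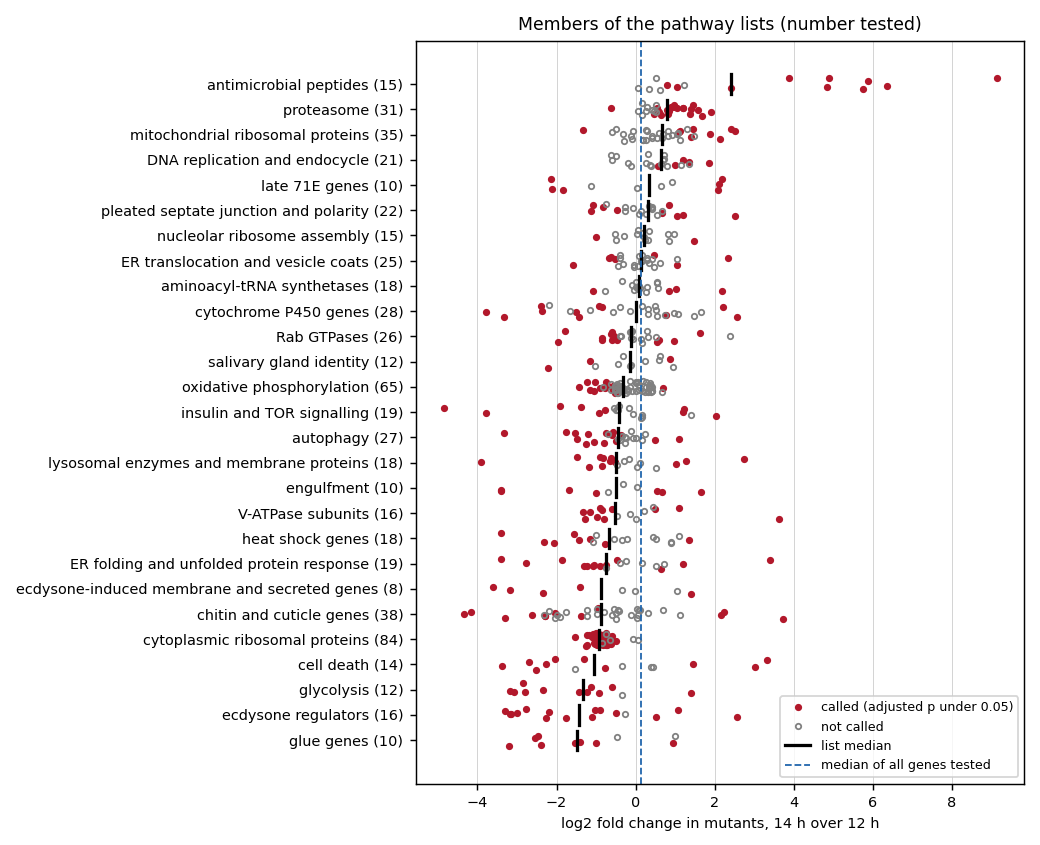
Log2 fold change in mutants (14 h over 12 h) of every tested member of 27 gene lists, with the number tested in brackets; filled points are called (edgeR adjusted p under 0.05), open points are not, black bars are list medians and the dashed line is the median of all genes (0.14). Antimicrobial peptides (median 2.42) and proteasome genes (0.79) lie at the top, and glycolysis (-1.33), ecdysone regulators (-1.43) and glue genes (-1.48) at the bottom.

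Markers of other cell types also differed between the ages. Over all genes, 22.6% were called higher and 22.4% lower. Of 5 neuronal and glial markers, 4 were higher at 14 h (elav, brp, Syt1 and repo) and 0 lower by edgeR, with summed levels of 27.2 to 30.7 CPM in 14 h mutants and 3.72 to 8.17 CPM in 12 h mutants (8.9 to 12.8 and 3.39 to 6.89 CPM without elav). The calls of brp, Syt1 and repo were lost in 3, 4 and 9 of 12 fits that left out 1 library. Muscle markers summed to 583 to 589 CPM in 14 h mutants and 1451 to 1760 CPM in 12 h mutants, and 2 of 10 fell (bt and Mef2). Most of that sum came from bt and Tm1, and the other muscle markers together held 26.7 to 42.6 CPM in 14 h mutants and 40.2 to 59.7 CPM in 12 h mutants, with Act88F at 0 in every mutant library. Epidermal and tracheal markers summed to 317 to 370 CPM in 14 h mutants and 129 to 208 CPM in 12 h mutants (1 of 8 higher, 1 lower). Without knk they summed to 103 to 123 CPM in 14 h mutants and 115 to 185 CPM in 12 h mutants, so the higher sum at 14 h rests on that gene. Imaginal markers summed to 40.9 to 69 CPM in 14 h mutants and 22.7 to 39.6 CPM in 12 h mutants (1 of 4 higher, 1 lower), and without ct to 4.87 to 9.79 CPM in 14 h mutants and 6.73 to 21.5 CPM in 12 h mutants. Midgut markers summed to 331 to 536 CPM in 14 h mutants and 307 to 661 CPM in 12 h mutants, and 2 of 6 fell. Most of that sum came from the myosin genes Myo61F and Myo31DF. Without them the midgut markers summed to 13.5 to 112 CPM in 14 h mutants and 14.8 to 249 CPM in 12 h mutants. Jon25Bi and PGRP-SC1a were at 0 in every library. Without the 14 h replicate 2 and the 12 h replicate 1, 1 neuronal, 0 midgut and 4 fat body markers were called, and 2374 genes in all (1072 higher, 1302 lower). The part of these cells in Eh, elav and the other rises was not tested.

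The mutant time changes were set beside those of the control glands. In controls 3277 genes were called (43.2%), 1575 higher (20.8%) and 1702 lower (22.4%). Rises shared by both genotypes numbered 1088, which is 63.4% of the mutant rises and 69.1% of the control rises. Shared falls numbered 1335, or 78.4% of either list. Of the 3417 genes called in mutants, 3221 (94.3%) had the same sign in controls. The log2 fold changes correlated across the 7584 genes (Pearson's r = 0.776, Spearman's rho = 0.763); genes are not independent replicates, and both contrasts come from 1 fit. Among the genes of the largest changes, Thor fell 56.4-fold in controls, mdy 39.8-fold and Cdc7 46.1-fold. The control log2 fold change was 2.76 for hid, 2.66 for Dcp-1, -3.50 for Diap2 and -4.78 for Eip74EF. For none of these 7 genes was the interaction called with all libraries (edgeR adjusted p of 0.238 or more). Without the 12 h control replicate 1 the control values of hid and Dcp-1 were 4.79 and 4.09. The interaction was then called for hid (-1.83, against 0.25 with all libraries; edgeR adjusted p = 0.00517) and for Eip74EF (1.91, adjusted p = 0.00413). Without that library 3610 genes were called in controls, shared rises numbered 1184 and shared falls 1543, and 94.5% of the genes called in mutants had the same sign.

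The test of the difference itself, mutant minus control time change, called 206 genes (2.72%), 133 positive (1.75%) and 73 negative (0.963%). Of the 943 genes called in mutants and not in controls, 50 had such a call, so most of that list is not shown to be particular to mutants. The 133 positive genes included 34 that rose in mutants and fell in controls, and the 73 negative genes included 14 that fell in mutants and rose in controls. The count of 206 depends on single libraries. It was 430 without the 12 h control replicate 1, of which 203 were among the 206, and 121 and 133 without the 14 h mutant replicates 2 and 3, and 105, 109 and 129 without the 14 h control replicates 1, 2 and 3. Without both libraries that held gut genes it was 84.

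**Figure D5:**
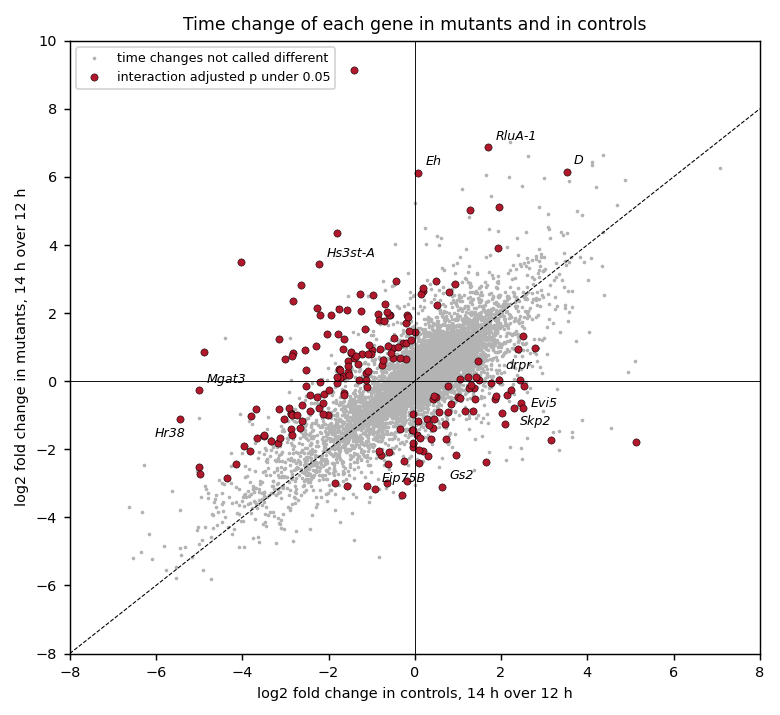
Log2 fold change of each of 7584 genes in mutants (vertical axis) against controls (horizontal axis), both 14 h over 12 h; red points are the 206 genes whose time changes differed (edgeR interaction adjusted p under 0.05), and the dashed line marks equal change. Most genes lie along the line (Pearson's r = 0.776), with Eh, RluA-1 and Hs3st-A above it and Gs2, Skp2 and Evi5 below it.

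Among the most positive differences were those of RluA-1 and Eh. In controls RluA-1 stood at 2.38, 2.3 and 2.55 CPM in 14 h controls, against 0.768, 0.866 and 0.519 CPM in 12 h controls (log2 fold change 1.71), and the difference was 5.17 (SE 0.39, edgeR adjusted p = 3.97e-05). For Eh, whose control libraries stayed between 0.519 and 2.74 CPM at both ages, it was 6.05 (SE 0.77, edgeR adjusted p = 0.00121). Hs3st-A, a heparan sulfate 3-O-sulfotransferase gene, stood at 7.96, 13.1 and 12.5 CPM in 14 h mutants, against 1.44, 1.57 and 0 CPM in 12 h mutants, and at 15, 17.9 and 12.5 CPM in 14 h controls, against 78.5, 48.2 and 85 CPM in 12 h controls, so the directions were opposite. The difference was 5.65 (SE 0.67, edgeR adjusted p = 0.000669). The ubiquitin protease gene ec (echinus), known for its role in eye cell death, moved in the same opposite ways. It stood at 110.2, 113 and 109.7 CPM in 14 h mutants, against 18.1, 24.6 and 21.6 CPM in 12 h mutants, and at 7.93, 5.65 and 10.9 CPM in 14 h controls, against 120.4, 18.6 and 32.4 CPM in 12 h controls. The difference was 5.18 (SE 0.76, edgeR adjusted p = 0.00283), and the control log2 fold change was -1.71 without the 12 h control replicate 1, against -2.81 with it. Mgat3, an N-glycan branching enzyme gene, was at or below 1.15 CPM in all mutant libraries (0.816, 0.659 and 0.562 CPM in 14 h mutants, against 0.16, 1.15 and 1.13 CPM in 12 h mutants). Its controls held 39.1, 37.6 and 43.5 CPM in 14 h controls, against 761, 1537 and 1529.7 CPM in 12 h controls, a control log2 fold change of -4.99, and the difference was 4.72 (SE 0.67, edgeR adjusted p = 0.00232). Mgat3 was not called in mutants.

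Of the most negative differences, Skp2, Evi5 and sty fell in mutants and rose in controls, and Gs2 fell in mutants and was not called in controls. Gs2, glutamine synthetase 2, stood at 12.4, 14.2 and 8.43 CPM in 14 h mutants, against 80.4, 122 and 97.9 CPM in 12 h mutants (log2 fold change -3.10, SE 0.32, edgeR adjusted p = 2.15e-05), and at 110.5, 74 and 86.5 CPM in 14 h controls, against 36.1, 55.4 and 82.9 CPM in 12 h controls. The difference was -3.74 (SE 0.43, edgeR adjusted p = 0.000564). Skp2, the substrate subunit of an SCF ubiquitin ligase, stood at 52.5, 47 and 54.6 CPM in 14 h mutants, against 83.3, 104 and 80.2 CPM in 12 h mutants, and at 620.4, 609 and 641 CPM in 14 h controls, against 170.5, 99.8 and 109 CPM in 12 h controls, a difference of -3.10 (SE 0.29, edgeR adjusted p = 0.000154). Evi5, which encodes a Rab GTPase-activating protein, stood at 22.8, 23.9 and 27.7 CPM in 14 h mutants, against 42, 37.2 and 36.8 CPM in 12 h mutants, and at 174, 227 and 151 CPM in 14 h controls, against 24.7, 40.1 and 34.4 CPM in 12 h controls, a difference of -3.11 (SE 0.29, edgeR adjusted p = 0.000154). The mutant falls of Skp2 and Evi5 were not called with library size alone (log2 fold changes -0.27 and -0.13), and that of Evi5 also not without the 14 h mutant replicate 1 or 2 (-0.58 and -0.61) or the 12 h mutant replicate 1 (-0.58).

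The signalling antagonist gene sty (sprouty) stood at 4.79, 5.06 and 3.56 CPM in 14 h mutants, against 17.8, 10.5 and 3.55 CPM in 12 h mutants, with overlapping groups, and at 15.1, 14.6 and 11.4 CPM in 14 h controls, against 2.82, 3.03 and 3.81 CPM in 12 h controls. The difference was -3.34 (SE 0.61, edgeR adjusted p = 0.0107), while the mutant fall of sty was called with all libraries (edgeR adjusted p = 0.0291) and lost in 5 of 12 fits that left out 1. Sk1, a sphingosine kinase gene, had 54 of its 59 counts in 12 h mutants in replicate 1, and its difference of -6.93 (SE 1.57, edgeR adjusted p = 0.0346) was -3.93 without that library (edgeR adjusted p = 0.268).

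Of the 16 ecdysone regulators tested, 1 had a positive and 2 had a negative difference called, against 1.75% and 0.963% of all genes. The others were not called with all libraries, and only the call of Hr38 stayed in all 12 fits that left out 1 library. Hr38 stood at 2.08, 2.2 and 2.44 CPM in 14 h controls, against 56.4, 98.5 and 141 CPM in 12 h controls, a 43.8-fold fall, against 2.16-fold in mutants, and the difference was 4.34 (SE 0.42, edgeR adjusted p = 0.000193). For Eip75B the control log2 fold change was -0.93, against -3.17 in mutants, a difference of -2.24 (SE 0.52, edgeR adjusted p = 0.0384). That call was lost in 10 of 12 fits that left out 1 library, with an edgeR adjusted p of up to 0.123. The control change of Eip75B was not called with all libraries and was -1.38 without the 12 h control replicate 1 (edgeR adjusted p = 0.000341). Eip78C had a difference of -1.16 (SE 0.23, edgeR adjusted p = 0.0177), and its call was lost in 7 such fits.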

How the data were processed

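The deposited table holds raw read counts per FlyBase gene, made by the authors. Per the submitters' processing notes, cutadapt 1.16, STAR 2.7.6a, featureCounts 1.6.3, DESeq2 1.30.1 and the build BDGP6 were used, with no role or order given. The strand setting, annotation release and treatment of multi-mapping reads are not given in the sources used here. Of 17807 genes, 17710 matched the reference annotation.

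edgeR 4.0.16 in R 4.3.3 was run on the counts. Its filterByExpr kept 7584 genes, and TMM (trimmed mean of M-values) factors set the library scale. The quasi-likelihood F test, checked on simulated data, used the 12 libraries in 1 model of 4 groups, so that 8 degrees of freedom estimate the spread. Contrasts were 14 h minus 12 h in each genotype and their difference, with Benjamini-Hochberg adjustment over all genes and calls under 0.05. SEs are the log2 fold change over the root of F. Replicate numbers were not used as pairs. Alternatives were DESeq2 1.42.0, limma voom 3.58.1, other scalings, filters, thresholds and blocks, and fits without libraries. Marker sums without their most abundant genes, and the control results without the 12 h replicate 1 given beside them, were chosen after seeing the data.

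The members and lists were chosen with earlier results of these data known. Named genes were Eip93F and all measured ecdysone regulators, the 12 largest non-overlapping rises and falls with at least 10 CPM, the 5 called genes of highest CPM in each direction, the 5 most positive and negative interactions, and up to 4 called members of smallest p per list; genes with provisional or non-coding symbols were left out. Besides these, hid, rpr, Dcp-1, Debcl, Dronc, Diap2, Dredd, Drice, drpr, Rac1, Atg3, Atg16, Npc2a, VhaAC39-2, Def, Hex-A, Prosbeta3, InR, raptor, Ero1L, Pdi, Hsc70-3, Sgs5bis, Eig71Eb, Eig71Ec, Eig71Ed, Eig71Ee, Eig71Eh, fkh, sage and the genes of the closing observations are given after their values had been seen. Eig71Ei was likewise given after its values had been seen. The gut genes mesh and Ssk come from earlier results.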

Additional observations from a re-analysis of the deposited data

Results flagged for a closer look

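The time changes of mutants and controls differed by edgeR's interaction test (adjusted p under 0.05) for 29 of 218 named genes, against 2.72% of all genes. The naming rule took 5 positive and 5 negative differences by this same test. Other genes were named after their values had been seen, so the count of 29 is no result. Values are differences of log2 fold changes, mutant minus control, and no cause was tested. The difference stayed called in all 12 fits that left out 1 library for Eh (6.05), Hs3st-A (5.65), ec (5.18), RluA-1 (5.17), Mgat3 (4.72), Hr38 (4.34), D (2.63), LManII (2.56) and SoxN (1.87), and likewise for REPTOR (-1.69), Skp2 (-3.10), Evi5 (-3.11), sty (-3.34) and Gs2 (-3.74). It was lost in at least 1 such fit for BomS2 (10.53), whose fitted value rests on 252 counts in 14 h mutants and 0 in 12 h mutants and is no measure of size. The same loss was seen for Eig71Ef (3.87), Eig71Ed (3.67), Eig71Eg (3.66), Eig71Ec (3.47), Ccdc85 (3.18), PGRP-SB2 (2.04), Sox21b (1.99), Eig71Ee (1.75) and mbc (1.45), and among the negative differences for Eip78C (-1.16), drpr (-1.92), Eip75B (-2.24), Cyp12a4 (-4.01) and Sk1 (-6.93). Without the 12 h control replicate 1, which stood apart from the other 12 h controls, the difference was 2.04 for Ccdc85 (still called), and that of Sox21b was 1.65 and not called (edgeR adjusted p = 0.0782).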

How the results depend on the processing

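The count of genes called in mutants stayed within 1.5 times of 3417 under every alternative tried. It ran from 2907 to 3650 when 1 of the 12 libraries was left out, and from 2515 to 3610 in controls. The count of differing time changes (206) moved most, to 334 with DESeq2, 71 at an adjusted p under 0.01, 84 without both libraries with gut genes, and 105 to 430 when 1 library was left out. Replicate numbers did not pair the libraries: over 18 same-number pairs the deviations correlated at -0.257 to 0.238. With the replicate number as a block, 3322 genes were called in mutants, 3153 in controls and 158 in the interaction, and 3072 and 2675 when each genotype was fitted alone.

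With library size alone, 64 of the 3417 genes called in mutants and 59 of the 3277 called in controls changed sign, and 0 of these were called there by edgeR. Under the other alternatives 0 called genes of those tested changed sign. Among the named genes CtsL1 (0.0186) and Hr39 (0.0287) were of the 64, and the cause was not tested. Sr-CI, a hemocyte marker that was not called with all libraries (log2 fold change -0.09), ran from -0.62 without the 12 h mutant replicate 2 to 1.52 without replicate 1, and was 1.15 without both libraries with gut genes and the 12 h control replicate 1. The share of higher calls in mutants was 75.0% with library size alone and 44.2% with DESeq2. Medians of engulfment, autophagy, lysosomal, gland identity, oxidative phosphorylation, insulin and TOR, and Rab genes were negative under TMM and positive with library size alone, but stayed below the median of all genes under both. Depth limits low genes: 0 counts allow up to 0.484 CPM in mutant libraries, by counting error only.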

Other observations

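Some gene families or groups of like-named genes outside the lists also held called genes in mutants. Over all genes, 22.6% were called higher and 22.4% lower. They were picked after their values had been seen, so their counts are descriptions. Of 6 measured Sox genes, which encode HMG-box transcription factors, 3 rose and 2 fell. Besides D, Sox21b stood at 16.9, 17.8 and 17.3 CPM in 14 h mutants, against 1.6, 1.002 and 0.806 CPM in 12 h mutants (log2 fold change 3.92). SoxN stood at 799, 808 and 733 CPM in 14 h mutants, against 469, 474 and 416 CPM in 12 h mutants (log2 fold change 0.78). For both, every 14 h library lay above every 12 h library. Sox15 fell, with 0.51, 0.769 and 0.562 CPM in 14 h mutants, against 7.53, 6.87 and 9.19 CPM in 12 h mutants (log2 fold change -3.65). Sox14, itself known as an ecdysone-responsive gene, stood at 1766, 1647 and 1554 CPM in 14 h mutants, against 9245, 8909 and 7384 CPM in 12 h mutants (log2 fold change -2.36). None of these 4 had overlapping ages.

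All 3 measured genes with a fasciclin name, which encode cell adhesion proteins, rose in mutants and in controls. Rises were called for 22.6% of all genes in mutants and 20.8% in controls. Fas2 stood at 385, 448 and 353 CPM in 14 h mutants, against 30.1, 23.5 and 26.1 CPM in 12 h mutants (log2 fold change 3.89, SE 0.60, edgeR adjusted p = 0.000276), and Fas3 at 50.2, 79.1 and 50.6 CPM in 14 h mutants, against 12.8, 7.3 and 9.999 CPM in 12 h mutants (log2 fold change 2.58, SE 0.57, edgeR adjusted p = 0.003). Of 8 measured odorant-binding protein genes, 2 rose and 4 fell (against 22.6% and 22.4% of all genes). Obp99d stood at 428, 301 and 469.6 CPM in 14 h mutants, against 5242, 7302 and 5026 CPM in 12 h mutants (log2 fold change -3.87). Of 8 peptidoglycan recognition protein genes, 2 rose and 2 fell, which is near the shares of all genes (22.6% and 22.4%). PGRP-LF, known to dampen immune signalling, stood at 39.9, 37.2 and 32 CPM in 14 h mutants, against 4.97, 10.9 and 6.45 CPM in 12 h mutants, and PGRP-LC, the membrane receptor of the Imd pathway, at 196, 210.4 and 184 CPM in 14 h mutants, against 366, 406 and 292 CPM in 12 h mutants (log2 fold changes 2.28 and -0.85). The PGRP-LC fall was not called with library size alone, and PGRP-LF shares exon sequence with a gene on the opposite strand.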
